A study of Mus musculus with 6 samples.

Results

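T cells were taken from single-cell RNA data of whole kidneys, from 3 Sham and 3 DOCA-salt animals. They were 436 of the 76774 cell barcodes in the files, 195 from Sham mice and 241 from DOCA-salt mice. The cells were chosen by their detected UMIs of marker genes, and a barcode was called a T cell when it met all of the following conditions. It held at least 500 unique molecular identifiers (UMIs, each standing for a captured RNA molecule) and at most 50% mitochondrial UMIs. At least 2 of the 5 T cell receptor genes Cd3e, Cd3d, Cd3g, Trac and Trbc2 were detected in it. It held no UMI of Ncr1 (a natural killer cell receptor), Cd79a (B cell receptor), Pecam1 (endothelium) or Slc12a1 (thick limb), and at most 1 of the 4 macrophage genes C1qa, C1qb, C1qc and Adgre1. The 4 proximal tubule genes Lrp2, Slc34a1, Slc5a12 and Slc22a6 together made up at most 0.2% of its UMIs. The question was how many T cells of the Cd4 and Cd8a types each kidney held, which genes they carried and how both differed between Sham and DOCA-salt mice.

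All mice were male C57BL/6 animals of 8 to 10 weeks. The DOCA-salt mice lost their left kidney, received 1 week later a pellet of 50 mg of deoxycorticosterone acetate (DOCA, a mineralocorticoid receptor agonist), and drank 1% NaCl for 21 days. The Sham mice had a sham operation, plain water and no pellet. The effect of losing a kidney therefore cannot be told apart from that of DOCA and salt. Each mouse gave 1 library of the 10x Genomics 3′ assay, and no library was sorted or enriched for immune cells.

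T cells recognise peptide antigen through a receptor of variable chains that signals through the CD3 proteins. CD4 marks helper and regulatory T cells, which direct other cells through cytokines, and CD8 marks T cells that kill target cells with granzymes and perforin. In the kidney, T cells lie in the interstitium between the tubules, and they have long been studied in salt-sensitive hypertension.

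The 6 libraries held 93172739 to 137819127 UMIs and 8246 to 10880 barcodes within the limits on UMIs and mitochondrial share, 60564 in all. T cells contributed 201184 to 382983 UMIs a mouse. Their median depth was 3203, 3259 and 2807 UMIs in the Sham mice and 3424.5, 4569 and 3733.5 UMIs in the DOCA-salt mice, so T cells of the DOCA-salt mice were deeper in every library. The median mitochondrial share of T cells was 6.70 to 12.1% in Sham and 5.59 to 6.99% in DOCA-salt mice. Pairs of libraries shared 33 to 69 barcodes, none of which was a T cell. Scrublet, a doublet caller, marked 11 of the 436 T cells, and these were kept. In all, 8 barcodes held 20 or more UMIs summed over 8 marker lists of other cell types. In 5 of them the largest part came from genes of the thick limb and distal tubule, in 2 of them (both from DOCA-salt mouse 2) fibroblast genes, and in 1 dendritic cell genes.

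The label was checked on genes that the rule did not use. Ptprc (CD45, carried by all leukocytes) was detected in 414 of the 436 cells, and 14 of 15 genes of T cell receptor signalling reached the filter on counts. The genes of the rule are a description only. Cd3g was found in 88.7 to 97.7% of a mouse's T cells and Trac in 67.6 to 83.1%, and the 5 genes together made up 0.309 to 0.331% of T cell UMIs in each mouse. At the edge of the rule, the 31 cells with just 2 T cell receptor genes had Ptprc in 83.9% of cases. The 149 barcodes just outside, with 1 such gene, had Ptprc in 17.4% and a median of 8318 UMIs. A further 29 barcodes were kept out by the proximal tubule limit alone, 5 by Ncr1 alone and 3 by the macrophage genes alone.

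T cells were counted first. The Sham mice gave 74, 59 and 62 T cells and the DOCA-salt mice 88, 65 and 88. These were 0.684, 0.715 and 0.570% of barcodes in Sham mice and 0.918, 0.619 and 0.835% in DOCA-salt mice. The means were 0.657% ± 0.077 and 0.791% ± 0.154 (SD, n = 3 each), the groups overlapped, and the difference of 0.134 percentage points gave p = 0.3 in a two-sided exact permutation test. With 3 mice against 3 the smallest p this test allows is 0.1.

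As a share of barcodes with a Ptprc UMI, however, T cells were 11.5, 12.01 and 10.8% in Sham mice and 8.99, 5.16 and 7.53% in DOCA-salt mice. The difference was -4.21 percentage points without overlap (exact permutation test, p = 0.1). The direction thus depended on the denominator. The same kidneys held more barcodes of the macrophage type, taken by the complement genes, with 101 to 112 in Sham and 341 to 505 in DOCA-salt mice, that is 1.10 and 4.26% of barcodes on average. B cells numbered 19 to 31 in a Sham and 6 to 12 in a DOCA-salt mouse, and natural killer (NK) cells 4 to 15 and 2 or 3, with no overlap and p = 0.1 in exact permutation tests of the shares of barcodes in each case. The plot of T cell numbers sets both denominators beside the composition by co-receptor.

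**Figure D1:**
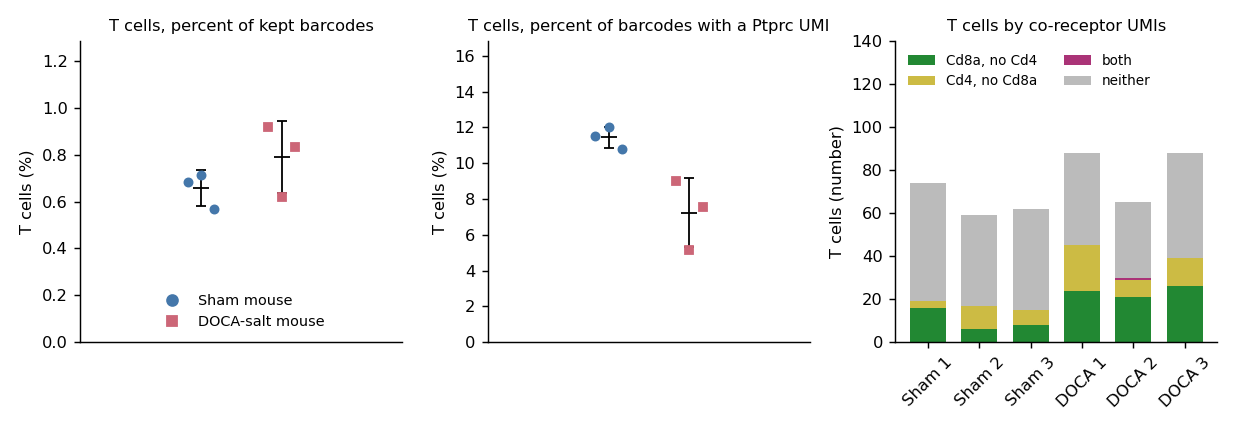
Left and middle, T cells as a percent of kept barcodes and of barcodes with a Ptprc UMI, with 1 point per mouse (circles Sham, squares DOCA-salt) and the mean and SD as black bars. Right, the number of T cells per mouse by detected co-receptor UMIs. The groups overlap on the left (0.570 to 0.715 against 0.619 to 0.918%) and not in the middle (10.8 to 12.01 against 5.16 to 8.99%).

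Cd8a T cells, here cells with a Cd8a UMI and no Cd4 UMI, were a larger share of T cells in every DOCA-salt mouse than in any Sham mouse. They numbered 16, 6 and 8 in the Sham mice and 24, 21 and 26 in the DOCA-salt mice. Because a deeper cell is more likely to show a given gene, every cell was thinned to 1000 UMIs, which left out 1 DOCA-salt cell and no Sham cell. The share of T cells with Cd8a was then 8.71, 3.66 and 5.06% in Sham mice and 9.20, 16.9 and 11.5% in DOCA-salt mice. The means were 5.81% ± 2.60 and 12.5% ± 3.97 (SD, n = 3 each), a difference of 6.73 points (exact permutation test, p = 0.1, the smallest possible). Sham mouse 1 and DOCA-salt mouse 1 lay close together. Without thinning the shares were 14.9% ± 5.98 and 30.2% ± 3.34, and as a share of all kept barcodes Cd8a cells were 0.148, 0.073 and 0.074% in Sham and 0.250, 0.200 and 0.247% in DOCA-salt mice. Of barcodes with a Ptprc UMI, however, they were 2.71, 1.31 and 1.49% in Sham and 2.60, 1.72 and 2.25% in DOCA-salt mice, which overlapped (exact permutation test, p = 0.6, a denominator added after seeing the data). Cd8b1, the partner chain of Cd8a, was present in 79 of the 101 Cd8a cells and in 5 of the 63 Cd4 cells. It was also present in 39 of the 271 cells with neither a Cd8a nor a Cd4 UMI. The thinned share of T cells with Cd8b1 was 9.04% ± 4.27 in Sham and 14.6% ± 3.58 in DOCA-salt mice (SD, n = 3 each). For this gene the groups overlapped (exact permutation test, p = 0.3). Sham mouse 1, at 13.9%, lay above DOCA-salt mice 1 and 3, at 11.9 and 13.3%. The separation by Cd8a was thus not seen with Cd8b1.

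Cd4 T cells, with a Cd4 UMI and no Cd8a UMI, numbered 3, 11 and 7 in the Sham mice and 21, 8 and 13 in the DOCA-salt mice. Their thinned shares were 1.61, 5.51 and 3.54% against 9.78, 5.03 and 4.59%, which overlapped (exact permutation test, p = 0.3). Of the Cd4 and Cd8a cells as 1 pool, 57.6% ± 24.7 were Cd8a cells in Sham and 64.1% ± 9.79 in DOCA-salt mice (SD, n = 3 each, exact permutation test, p = 0.7). A single cell held both genes, and 271 of 436 held neither. At this depth a cell without a UMI of a co-receptor may still carry it, and the thinned shares are thus lower bounds.

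Background from free RNA was read in cell types that should lack these genes. In B cells (median of 2564 UMIs) Cd4 was seen in 0 of 97 cells and Cd8a in 0 of 97, which allows a share of up to 3.09% for each. In NK cells each was seen in 0 of 35, which allows up to 8.57%. Cd8a was found in 0 of 1634 macrophages (up to 0.184%). Macrophages of the mouse can carry Cd4 themselves, and 0.924% of them in Sham and 0.896% in DOCA-salt mice had a Cd4 UMI after thinning. These limits are on the share of cells with a UMI, not on the share that express the gene, and cover counting error only.

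Smaller T cell types were few. Foxp3, the factor that defines regulatory T cells, was detected in 1, 1 and 2 T cells of the Sham mice and in 2, 6 and 12 of the DOCA-salt mice. The thinned shares of 1.18% ± 1.07 and 3.95% ± 3.03 overlapped (SD, n = 3 each, exact permutation test, p = 0.2). Of all kept barcodes, Foxp3 T cells were 0.0133% in Sham and 0.0640% in DOCA-salt mice on average, without overlap (exact permutation test, p = 0.1), and of barcodes with a Ptprc UMI 0.253% and 0.582%, which overlapped (p = 0.3). None of the 24 Foxp3 cells had a Cd8a UMI, 2 had a Cd4 UMI, and the others had neither. Trdc, the constant chain of the gamma delta receptor, was found in 1, 2 and 3 cells of the Sham mice and 2 in each DOCA-salt mouse.

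Thinned shares of T cells with a UMI were compared for 29 marker genes in all, and none passed after adjustment over the 29 (lowest adjusted p = 0.322, exact permutation tests). In 7 of them every DOCA-salt mouse lay above every Sham mouse. These were the early activation and residence gene Cd69 (29.2% ± 4.17 against 42.1% ± 4.48), the memory marker Cd44 (21.1% ± 1.91 against 31.3% ± 3.18), the checkpoint receptors Ctla4 (13.9% ± 2.59 against 26.0% ± 6.59) and Pdcd1 (1.72% ± 0.764 against 6.73% ± 2.30), the interleukin 2 receptor chain Il2ra, the epithelial-binding integrin Itgae and the proliferation gene Mki67. In 2 genes every DOCA-salt mouse lay below, namely Ifng, the main type 1 cytokine (28.1% ± 1.82 against 22.0% ± 2.81), and Klrb1c, which encodes NK1.1 (3.21% ± 0.832 against 1.00% ± 0.473). Each of the 9 had p = 0.1 in the exact permutation test before adjustment (n = 3 mice a group). Without thinning the groups overlapped for Ifng (51.4, 54.2 and 53.2% in Sham against 38.6, 53.8 and 44.3% in DOCA-salt mice). They also overlapped for Il2ra (8.11, 6.78 and 6.45% against 13.6, 6.15 and 15.9%). Among all 4871 genes tested by their summed UMIs, described below, the groups did not overlap for 8.44% that were higher and 5.71% that were lower. For thinned shares no such value over all genes was computed, and the 29 genes were chosen. Itgae was found in 2 T cells of Sham and 28 of DOCA-salt mice, 14 of the 28 with Cd8a and 2 with Cd4. Of the 47 Pdcd1 cells in DOCA-salt mice 19 had Cd8a and 7 had Cd4.

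UMIs were then summed over the T cells of each mouse and compared gene by gene with edgeR's quasi-likelihood test (Benjamini-Hochberg adjustment over all genes tested). Levels are given as CPM, the UMIs of a gene scaled to the same total of T cell UMIs in each mouse. Of 4871 genes tested, 12 passed an adjusted p of 0.05. Of these, 6 were higher in DOCA-salt mice (0.123% of genes tested) and 6 lower (0.123%). At an unadjusted p under 0.05 the numbers were 234 higher (4.8%) and 224 lower (4.6%), and the mice did not overlap in CPM for 411 genes that were higher (8.44%) and 278 that were lower (5.71%). The median change over all genes was -0.00 on the log2 scale. The number of calls depended on single mice. It was 2 without Sham mouse 1, 48 without Sham mouse 2, 1 without Sham mouse 3, 2 without DOCA-salt mouse 1, 9 without DOCA-salt mouse 2 and 2 without DOCA-salt mouse 3. Lyst alone was called in each of these fits, and no gene of the 12 changed direction in any. The filter on counts asked for 31.5 CPM in at least 3 mice. Among the 12, Il1rl1, Cpm and Tent5a reached it only with the DOCA-salt mice, and Inmt only with the Sham mice. In each of these genes every mouse of the other group was below it. Their direction and lack of overlap were thus fixed by the filter. Gm41331 was below it in DOCA-salt mouse 3.

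Among the 12 genes past the adjusted threshold, the largest increase was that of Il1rl1, which encodes ST2, the receptor of interleukin 33, carried by type 2 helper cells, by a subset of regulatory T cells and by group 2 innate lymphoid cells (ILC2). It lies at chr1:40468730-40504575 of GRCm39. Its level was 3.43, 0 and 0 CPM in the Sham mice and 52.3, 39.6 and 83.6 CPM in the DOCA-salt mice. All Sham mice were near 0 and all DOCA-salt mice clearly above (edgeR, adjusted p = 0.0172). The Sham level rests on 1 UMI, and the ratio of the pooled levels was 41.7 with a 95% counting interval of 7.23 to 1674. It was detected in 1 Sham T cell and in 8, 5 and 8 T cells of the DOCA-salt mice. Of these 21 cells 16 had the type 2 factor Gata3, 11 had Foxp3, 11 had Areg, 7 had Cd4 and none had Cd8a. Over all T cells, a list of 7 ILC2 genes that includes Il1rl1, Gata3 and Areg made up 0.00996, 0.0198 and 0.0109% of UMIs in Sham and 0.0358, 0.0220 and 0.0499% in DOCA-salt mice, and the part of ILC2 in the result was not tested.

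The other 5 genes also rose. Cpm, a membrane carboxypeptidase, was at 24.0, 23.5 and 14.9 CPM in Sham and 122, 102 and 240 CPM in DOCA-salt mice, a log2 change of 2.79 ± 0.42 (SE; edgeR, adjusted p = 0.0139). Itgav, the integrin alpha V chain that pairs with several beta chains to bind matrix and latent TGF-beta, was at 96.2, 146 and 214 CPM against 523, 333 and 554 CPM (1.60 ± 0.29, adjusted p = 0.0402). Gpr183, a receptor for oxysterols that guides lymphocyte migration, was at 96.2, 193 and 119 CPM against 468, 418 and 300 CPM (1.51 ± 0.27, adjusted p = 0.0402). In each of the 3 the lowest DOCA-salt mouse lay above the highest Sham mouse. The same held for Ldlrad4, an inhibitor of TGF-beta signalling (113, 94.2 and 84.5 against 401, 220 and 282 CPM, log2 change of 1.56 ± 0.27), and for Tent5a, a poly(A) polymerase (20.6, 23.5 and 14.9 against 69.8, 73.5 and 146 CPM, 2.21 ± 0.42). For Cpm and Tent5a every Sham mouse was under the filter on counts, so that this lack of overlap was fixed by the filter. Within DOCA-salt T cells, Cpm was found in 16 of 42 Cd4 cells and 5 of 71 Cd8a cells, while Gpr183 was found in 22 of 42 and 44 of 71. In macrophages, summed over mice, Itgav was at 396 CPM in Sham and 393 CPM in DOCA-salt mice and Gpr183 at 267 and 272 CPM. Ldlrad4 was at 202 and 244 CPM there, and Tent5a at 128 and 166 CPM. Cpm was at 2.19 and 7.34 CPM in macrophages, and Il1rl1 at 8.74 and 5.77 CPM. Of a list of 8 macrophage genes, 4 were limited by the rule (Adgre1 was at 0). The 4 that the rule did not use, Csf1r, Apoe, Lyz2 and Cd68, made up 0.00687, 0.00848 and 0.00646% of T cell UMIs in Sham and 0.00814, 0.0421 and 0.0104% in DOCA-salt mice, which overlapped (exact permutation test, p = 0.2). A list of 6 endothelial genes, with Pecam1 (barred by the rule) at 0, made up 0.000497 to 0.00172% and 0.00233 to 0.00961%, and a list of 6 fibroblast genes 0 to 0.00149% and 0.00494 to 0.279%, highest in DOCA-salt mouse 2. Neither of these 2 lists overlapped between groups (exact permutation tests, p = 0.1 each), and all 6 increases were also called without the 8 barcodes that held the most UMIs of other cells, an alternative added after seeing the data. When the limit on proximal tubule UMIs was lowered to 0.05%, none of the 6 was called, with 3129 genes tested. Cpm, Itgav, Ldlrad4 and Gpr183 then had an adjusted p of 0.0761 (edgeR) and log2 changes of 3.71, 1.58, 1.60 and 1.77, and Il1rl1 and Tent5a did not reach the filter on counts.

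Among the genes that fell, Lyst, a regulator of lysosome and granule size, had the smallest adjusted p. It was at 426, 579 and 487 CPM in Sham and 119, 144 and 167 CPM in DOCA-salt mice (log2 change of -1.84 ± 0.22, edgeR, adjusted p = 0.00328). Il12rb2, the signalling chain of the interleukin 12 receptor on type 1 T cells and NK cells, was at 350, 349 and 308 CPM against 64.0, 138 and 78.3 CPM (-1.89 ± 0.27, adjusted p = 0.0124). It was detected in 34, 32 and 25 T cells of the Sham mice and 9, 17 and 10 of the DOCA-salt mice, despite the greater depth and number of the latter. In NK cells, summed over mice, it was at 705 CPM in 28 Sham cells and 122 CPM in 7 DOCA-salt cells.

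Zbtb16, which encodes PLZF, the factor of invariant NKT cells, mucosal-associated invariant T cells and some gamma delta T cells, was at 168, 414 and 258 CPM in Sham and 66.9, 76.3 and 112 CPM in DOCA-salt mice (log2 change of -1.74 ± 0.31, edgeR, adjusted p = 0.0402). It was found in 17, 25 and 17 T cells of the Sham mice and 8, 4 and 11 of the DOCA-salt mice. These were mostly cells without either co-receptor UMI, 56 of 144 such cells in Sham and 19 of 127 in DOCA-salt mice, whereas 0 of 30 and 2 of 71 Cd8a cells had it. Of the 59 Sham cells with Zbtb16, 10 had Klrb1c and 3 had Trdc. Txk, a kinase of the T cell receptor pathway, was at 354, 551 and 403 CPM against 209, 178 and 201 CPM (-1.19 ± 0.22, adjusted p = 0.0402). None of the DOCA-salt mice reached the Sham mice in either gene.

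Gm41331, a long noncoding RNA, was at 124, 84.8 and 139 CPM in Sham and 37.8, 39.6 and 18.3 CPM in DOCA-salt mice (log2 change of -1.92 ± 0.35, edgeR, adjusted p = 0.0402). Inmt, a methyltransferase of the kidney tubule, was at 106, 65.9 and 89.5 CPM against 8.72, 5.65 and 31.3 CPM (-2.53 ± 0.48, adjusted p = 0.0455). In other cells of Sham and DOCA-salt mice, summed over mice, it was at 647 and 155 CPM in proximal tubule barcodes, 83.8 and 13.8 CPM in macrophages and 94.9 and 36.3 CPM in B cells, lower in DOCA-salt mice in each. Of a list of 10 proximal tubule genes, the rule capped 4. The other 6 all had lower levels in T cells of DOCA-salt mice, and together made up 0.580, 0.292 and 0.833% of T cell UMIs in Sham and 0.288, 0.224 and 0.478% in DOCA-salt mice, which overlapped (exact permutation test, p = 0.2). When the limit on proximal tubule UMIs was lowered to 0.05%, Lyst alone of the genes that fell was still called, with 3129 genes tested. Il12rb2, Zbtb16, Gm41331 and Txk lost the call, and Inmt did not reach the filter on counts. The part of tubular RNA in the change of Inmt was not tested.

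A list of 7 NK cell genes made up 0.0189, 0.0250 and 0.0239% of T cell UMIs in Sham and 0.00553, 0.00904 and 0.00627% in DOCA-salt mice, without overlap (exact permutation test, p = 0.1). Of its members Ncr1 (barred by the rule), Klra8 and Klra4 were at 0, and Klre1 (log2 change of -1.81 ± 0.40, edgeR, adjusted p = 0.0821) and Fcer1g (-1.73 ± 0.44, adjusted p = 0.142) were the 2 tested, neither of which passed. Neither was above the filter on counts in every DOCA-salt mouse. Their part in the lower Il12rb2, Lyst and Zbtb16 was not tested. All 12 genes are shown by mouse in the plot of genes past the threshold.

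**Figure D2:**
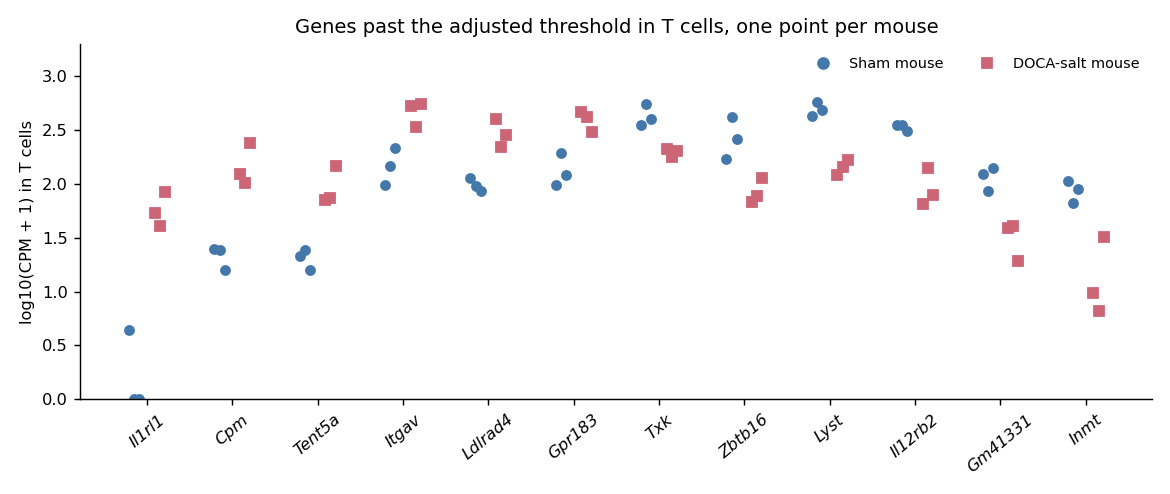
The 12 genes with an adjusted p under 0.05 in T cells, ordered by log2 change from Il1rl1 to Inmt. Each point is the level in the T cells of 1 mouse as log10 of CPM plus 1 (circles Sham, squares DOCA-salt). The groups do not overlap in any of the 12, which the filter on counts fixed for Il1rl1, Cpm, Tent5a and Inmt.

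Groups of genes were followed in lists. The lists were described by how many tested genes had an unadjusted p under 0.05, beside 4.8% higher and 4.6% lower over all genes, and no set test was made. The filter on counts asked for 31.5 CPM in at least 3 mice, so that a gene could reach it through the group in which it is high. Of the 234 genes that were higher, 135 were above it in every Sham mouse, and of the 224 that were lower, 156 in every DOCA-salt mouse. In the list of regulatory T cell genes 9 of 12 reached the filter, and none passed the adjusted threshold. The 4 that were above it in every Sham mouse, Ikzf2, Ctla4, Tnfrsf18 and Tnfrsf9, had higher levels in DOCA-salt mice with an unadjusted p under 0.05. The other 5, Il2ra, Tnfrsf4, Areg, Nrp1 and Capg, were not above it in every Sham mouse. Their higher level was thus at least in part fixed by the filter, and their values are a description. Over all 12 genes, tested or not, 10 did not overlap between groups, all higher in DOCA-salt mice, beside 8.44% of all genes tested. That share was not computed for genes below the filter. The list was chosen with earlier results of these data known, so that the count is a description. Areg, a growth factor made by tissue regulatory T cells and ILC2, was at 20.6, 9.42 and 9.94 CPM in Sham and 75.6, 50.9 and 75.7 CPM in DOCA-salt mice (2.17 ± 0.44, edgeR, adjusted p = 0.0652). Tnfrsf4, the costimulatory receptor OX40, was at 17.2, 4.71 and 49.7 CPM against 84.3, 79.1 and 188 CPM (2.28 ± 0.53, adjusted p = 0.109). In both genes every DOCA-salt mouse lay above every Sham mouse. For Areg, which was under the filter in every Sham mouse, this was fixed by the filter.

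Ikzf2 (Helios) was at 58.4, 231 and 253 CPM in Sham and 567, 305 and 807 CPM in DOCA-salt mice (log2 change of 1.61 ± 0.42, edgeR, adjusted p = 0.157). Il2ra (1.22 ± 0.39), Ctla4 (0.89 ± 0.26), Tnfrsf18 (1.08 ± 0.30), Tnfrsf9 (0.99 ± 0.33), Nrp1 (1.04 ± 0.38) and Capg (2.17 ± 0.44) had adjusted p of 0.0658 to 0.337. Foxp3 itself was too low to be tested, at 3.43, 4.71 and 24.9 CPM in Sham and 5.82, 31.1 and 57.4 CPM in DOCA-salt mice, which overlapped. Ctla4 was found in 17 of the 20 Foxp3 cells of DOCA-salt mice, but also in 36 of the 72 cells with a Cd8a UMI. When the 8 barcodes with markers of other cells were left out, an alternative added after seeing the data, 31 genes passed, the 12 among them together with Areg, Capg and Tnfrsf4.

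Among helper types, the type 1 list had Il12rb2 as its sole gene past the adjusted threshold. The other 5 of 6 genes did not reach an unadjusted p of 0.05, with Tbx21 (T-bet, the type 1 factor) at -0.50 ± 0.25 and Ifng at 0.40 ± 0.42 on the log2 scale. Ifng UMIs were uneven, at 419, 334 and 497 CPM in Sham and 314, 1116 and 290 CPM in DOCA-salt mice, with DOCA-salt mouse 2 far above the others, while the thinned share of cells with Ifng was lower in all DOCA-salt mice. In the type 17 list 4 of 6 tested genes had an unadjusted p under 0.05, all higher, 2 of them above the filter in every Sham mouse. They included Il23r (0, 14.1 and 19.9 against 58.2, 90.4 and 67.9 CPM, 2.74 ± 0.57, edgeR, adjusted p = 0.0781) and Rora (0.90 ± 0.23). Rora was above the filter in every Sham mouse. Il23r was below it in every Sham mouse, so that its higher level was fixed by it. Il17a had 0 UMIs in each Sham mouse and 4, 0 and 31 in the DOCA-salt mice, and was not tested. In the type 2 list both tested genes had higher levels with an unadjusted p under 0.05. They were Il1rl1, described above, and Gata3, the defining factor of type 2 cells (68.7, 184 and 99.4 against 227, 130 and 305 CPM, 0.90 ± 0.34, edgeR, adjusted p = 0.382), whose groups overlapped. Only Gata3 was above the filter in every Sham mouse, and the higher level of Il1rl1 was fixed by it. The other 5 of 7 genes were too low to test. Among them Il4 was at 0, 47.1 and 64.6 CPM in Sham and 2.91, 8.48 and 2.61 CPM in DOCA-salt mice, Il5 had UMIs in DOCA-salt mouse 3 alone and Il13 in Sham mouse 1 alone.

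Of the 8 tested naive and recirculating genes, Satb1, a chromatin organiser of naive T cells, was at 495, 1097 and 552 CPM in Sham and 329, 325 and 201 CPM in DOCA-salt mice (log2 change of -1.36 ± 0.30, edgeR, adjusted p = 0.0821). Bach2 (-0.77 ± 0.21) and Lef1 (-0.78 ± 0.28) also had an unadjusted p under 0.05 with lower levels, and Il7r (0.79 ± 0.34) with higher levels. Of 9 tested cytotoxic granule genes, Fasl (-1.17 ± 0.42, adjusted p = 0.331) and Ctsw (-0.66 ± 0.30, adjusted p = 0.508) were the 2 of unadjusted p under 0.05. Gzma was at 398, 0 and 492 CPM in Sham mice, a range that held all DOCA-salt mice.

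Pdcd1, which encodes PD-1, was at 10.3, 23.5 and 9.94 CPM in Sham and 69.8, 33.9 and 88.8 CPM in DOCA-salt mice (log2 change of 2.09 ± 0.50, edgeR, adjusted p = 0.114). It was below the filter on counts in every Sham mouse, so that its higher level was fixed by the filter. Tox (1.06 ± 0.32), which was above the filter in every Sham mouse, was the other of 5 tested inhibitory genes with an unadjusted p under 0.05. In the tissue residence list 2 of 9 tested genes were higher at that level, among them Cd69 (0.71 ± 0.22), and Cxcr6 changed by 0.05 ± 0.21. The integrin Itga4 was higher (1.05 ± 0.24, adjusted p = 0.0995), and the chemokine receptor Ccr2 was lower (-0.72 ± 0.29) at an unadjusted p under 0.05. Among 12 genes of the mineralocorticoid and glucocorticoid response, 2 were higher and 3 lower at an unadjusted p under 0.05. Of the higher ones 1 was above the filter in every Sham mouse, and the lower ones were all above it in every DOCA-salt mouse. The higher ones were Il7r, given above, and Fkbp5, a chaperone induced by these receptors, at 3.43, 4.71 and 24.9 CPM in Sham and 34.9, 50.9 and 67.9 CPM in DOCA-salt mice (2.26 ± 0.59, adjusted p = 0.156). Fkbp5 was below the filter in every Sham mouse, so that its higher level was fixed by it. The lower ones were Zbtb16, which passed the adjusted threshold, Per1 (-0.63 ± 0.24) and the glucocorticoid receptor gene Nr3c1 (-0.57 ± 0.25). Sgk1 was at 0.53 ± 0.42 and Tsc22d3 at -0.03 ± 0.23 on the log2 scale.

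None of 14 tested genes of T cell receptor signalling had an unadjusted p under 0.05 (median change of -0.06), for example Lck at 306 to 333 CPM in Sham and 319 to 376 CPM in DOCA-salt mice. The same count of 0 held for 10 tested genes of MHC class I and antigen processing and for 7 of proliferation. Of 10 tested interferon-response genes, by contrast, 4 had higher levels with an unadjusted p under 0.05, beside 4.8% over all genes, 2 of them above the filter in every Sham mouse. Isg15 was at 41.2, 23.5 and 39.8 CPM in Sham and 55.3, 147 and 39.2 CPM in DOCA-salt mice, which overlapped, again highest in DOCA-salt mouse 2. Of 20 tested genes of tissue dissociation and early response 4, Fos among them, were higher and 1 was lower, and the list as a whole made up 0.762 to 1.30% of UMIs in Sham and 0.936 to 1.25% in DOCA-salt mice, which overlapped. The plot of listed genes shows these changes with their errors.

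**Figure D3:**
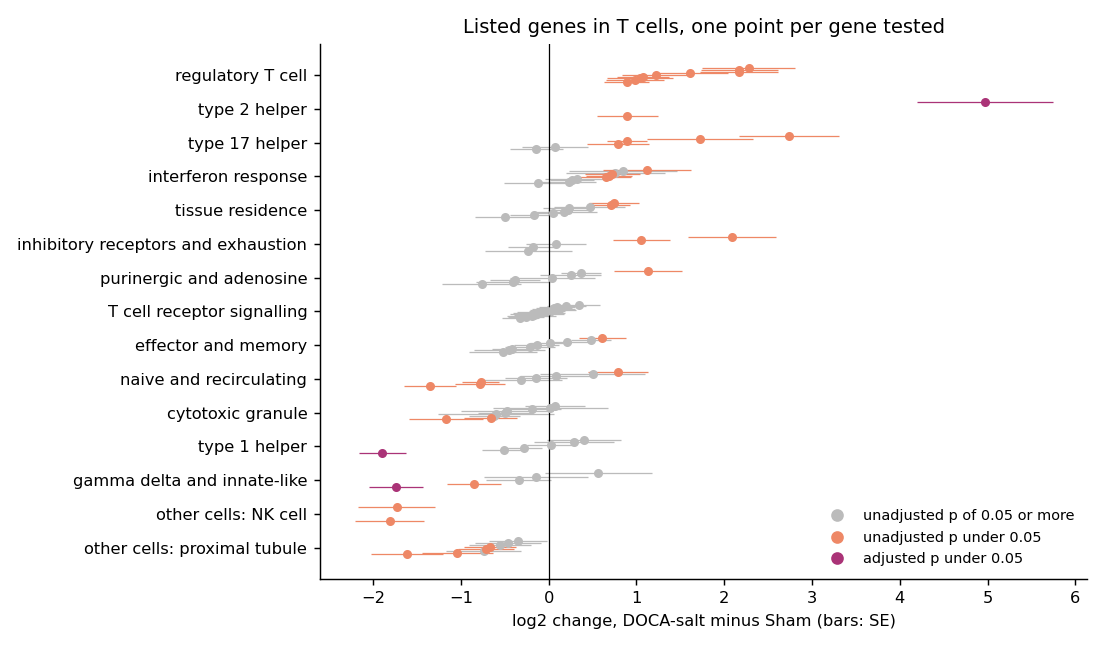
Log2 change in T cells (DOCA-salt minus Sham) of the tested genes of 15 lists, with 1 point per gene and the SE as a bar. Grey marks an unadjusted p of 0.05 or more, orange an unadjusted p under 0.05 and purple an adjusted p under 0.05. The 9 tested regulatory T cell genes lie above 0, 5 of which were not above the filter on counts in every Sham mouse. The T cell receptor signalling genes lie around 0 (median of -0.06).

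Cd8a and Cd4 T cells of the same mouse were compared next. Cd4 and Cd8a themselves were left out, since they define the groups. Only DOCA-salt mice 1 and 3 had at least 10 cells of both types. In these 2 mice 66 of 1878 genes differed at an adjusted p under 0.05 (edgeR, mouse as a block), 37 higher in Cd8a cells (1.97%) and 29 lower (1.54%). With all 6 mice, an alternative added after seeing the data in which some sums hold only 3 to 9 cells, 48 of 936 genes differed, 19 higher (2.03%) and 29 lower (3.1%). Of these, 30 genes were called in both. DESeq2 called 5 in the 2 mice and 31 in the 6. When 1 mouse was left out of the 6 in turn, 11 to 62 genes were called, with 11 without DOCA-salt mouse 1 and 19 without DOCA-salt mouse 2.

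The chemokine genes Ccl4 and Ccl5 led the Cd8a side. Ccl4 was at 1623, 1374, 4751, 1355, 1197 and 2846 CPM in the Cd8a cells of Sham mice 1 to 3 and DOCA-salt mice 1 to 3. In the Cd4 cells it was at 0, 55.8, 197, 0, 85.5 and 0 CPM, far below in every mouse (log2 difference of 5.49 ± 0.39, edgeR, adjusted p = 6.80e-11). Ccl5 was at 7468 ± 3386 CPM in Cd8a and 868 ± 785 CPM in Cd4 cells (SD, n = 6; 3.37 ± 0.33). The granule genes Nkg7 (2.43 ± 0.25), Klrk1, the activating receptor NKG2D (3.08 ± 0.45), and Ctsw (2.20 ± 0.39) were higher in Cd8a cells of 6 of 6 mice. The same sign in every mouse was a condition for naming a gene. These were the 3 tested genes of the cytotoxic list. Klrk1 and Ctsw were at 20.1 ± 25.0 and 52.7 ± 35.3 CPM in Cd4 cells (SD, n = 6). These 2 reached the filter on counts only through the Cd8a cells, so that their direction was fixed by it. Ly6c2 (2.55 ± 0.51), the phosphatase gene Dusp2 (1.59 ± 0.27), Epsti1, Mctp2 and Peak1 completed the 10 leading genes.

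In the 2 mice with enough cells, 7 of 11 cytotoxic genes were tested and 6 passed, all higher in Cd8a cells. Of these, Gzma, Gzmb and Klrc1 had no UMI in the Cd4 cells, as did Itga1, which is not in the list. Such genes reached the filter on counts only through the Cd8a cells, so that their direction was fixed by it. Gzma, a granzyme, had no UMI in the Cd4 cells and 580 ± 7.70 CPM in the Cd8a cells (SD, n = 2), at least 26.5-fold higher against a floor of 3 UMIs over the group. On the same basis Gzmb was at least 13.9-fold higher, the collagen-binding integrin gene Itga1 at least 11.4-fold and the inhibitory NK receptor gene Klrc1 at least 7.65-fold. Cd8b1 was at 29.5 ± 4.36 CPM in Cd4 and 368 ± 70.7 CPM in Cd8a cells.

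On the Cd4 side, Tnfsf8 (CD30 ligand) was at 358, 186, 434, 423, 228 and 440 CPM in Cd4 cells and 0, 102, 0, 16.7, 27.8 and 17.7 CPM in Cd8a cells of the 6 mice (log2 difference of -4.00 ± 0.48, edgeR, adjusted p = 1.38e-06). Ctla4 (-1.93 ± 0.38), the costimulator Icos (-1.59 ± 0.36) and Itgav (-1.62 ± 0.32) were lower in Cd8a cells of 6 of 6 mice. These values come from the fit over 6 mice that was added after seeing the data. In the 2 mice Icos and Itgav also passed, while Ctla4 did not (-0.86 ± 0.37, edgeR, adjusted p = 0.269). There, Cd40lg, the helper ligand for B cells and dendritic cells (-4.94 ± 0.74), Maf (-2.82 ± 0.45), Rora (-2.42 ± 0.39), the RANK ligand gene Tnfsf11 (-2.78 ± 0.61) and Cpm (-3.02 ± 0.63) were lower in Cd8a cells. Cd40lg, Maf, Tnfsf11 and Cpm, at 8.60, 64.9, 35.1 and 30.9 CPM on average in Cd8a cells, reached the filter on counts only through the Cd4 cells. The same held for Tnfsf8 in the fit over 6 mice. The direction of these genes was thus fixed by the filter. Itgav and Cpm are both among the 6 genes that rose in T cells of DOCA-salt mice. Itgav was higher in Cd4 than in Cd8a cells in both fits, and Cpm in DOCA-salt mice 1 and 3. In Sham mice, summed over mice, Cpm was at 57.2 CPM (5 UMIs) in Cd4 and 46.4 CPM (6 UMIs) in Cd8a cells. The plot of Cd8a against Cd4 cells gives the 20 leading genes.

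**Figure D4:**
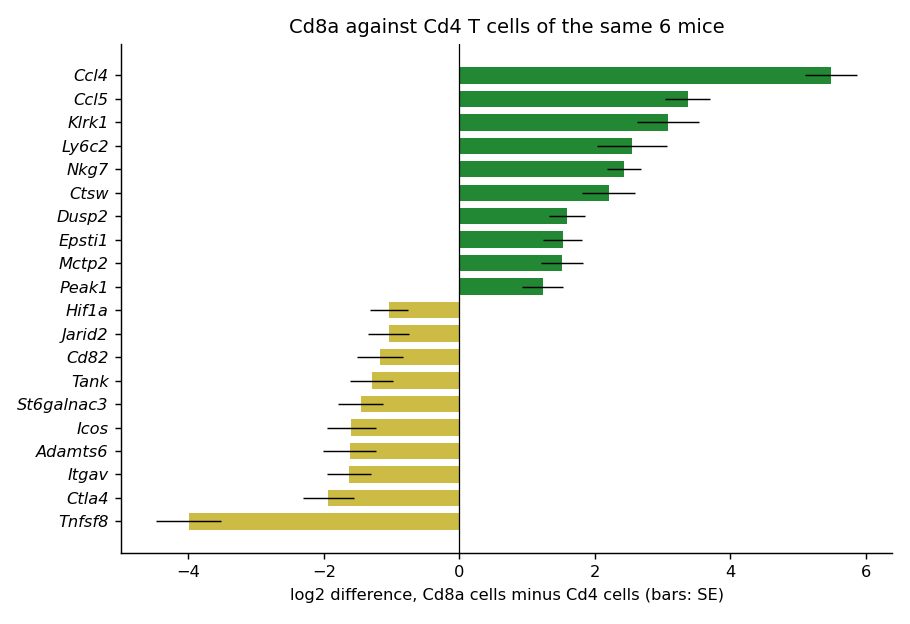
Log2 difference between Cd8a and Cd4 T cells of the same 6 mice for the 10 genes that were highest in each direction among those called with the same sign in every mouse. Bars give the edgeR estimate and lines its SE. Ccl4 reaches 5.49 on the Cd8a side and Tnfsf8 -4.00 on the Cd4 side.

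Within Cd4 cells, just Sham mouse 2 and DOCA-salt mice 1 and 3 had 10 cells or more, so that the single Sham sum was assumed to vary like the others. In this fit 21 of 1623 genes passed (1.29%, edgeR), 10 higher and 11 lower, while DESeq2 called 0 and the fit over all 6 mice 0 of 788 with 46 at an unadjusted p under 0.05. The values are therefore given as a description of these 3 mice, and some rest on few cells of the 11 in the Sham mouse, namely 2 for Ly6c2, 3 for Zbtb16 and 5 for Satb1 and for Txk. Satb1 was at 856 CPM in the Sham mouse and 52.9 and 32.6 CPM in the DOCA-salt mice. Ly6c2 was at 447 against 52.9 and 0 CPM, Zbtb16 at 372 against 52.9 and 0 CPM, Lyst at 558 against 132 and 32.6 CPM, and Txk at 577 against 106 and 97.9 CPM. The last 3 of these are also among the genes that fell over all T cells, which include these cells. In the other direction, Ltb was at 74.5 against 622 and 473 CPM and Spp1 (osteopontin) at 112 against 569 and 652 CPM. Tnfrsf4, Cd274 (PD-L1) and Ccl5 had 1, 2 and 3 UMIs in the Sham mouse, and each of the 3 rested largely on 1 DOCA-salt mouse, with Tnfrsf4 at 66.1 and 701 CPM, Cd274 at 66.1 and 603 CPM, and Ccl5 at 1534 and 114 CPM.

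Within Cd8a cells, Sham mouse 1 and the 3 DOCA-salt mice had 10 cells or more, so that the single Sham sum was again assumed to vary like the others and the counts are a description of these 4 mice. None of 3011 genes passed (0%, edgeR), with 141 at an unadjusted p under 0.05, and DESeq2 also called 0, with 34 at that level. Leaving out a DOCA-salt mouse gave 3 or 4 calls. Over all 6 mice 0 of 1660 genes passed.

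Whether the DOCA-salt change differed between Cd8a and Cd4 cells could be tested only over all 6 mice, since no Sham mouse had 10 cells of both types. It did so for 1 of 936 genes (0.107%, edgeR), Xcl1, a chemokine gene for cross-presenting dendritic cells. In Cd4 cells Xcl1 was at 1074, 968 and 710 CPM in Sham and 344, 57.0 and 48.9 CPM in DOCA-salt mice. In Cd8a cells it was at 340, 713 and 1113 CPM against 1112, 585 and 539 CPM. The level in Cd4 cells was lower in every DOCA-salt mouse, and that in Cd8a cells overlapped. The difference of the changes was 2.73 ± 0.57 (adjusted p = 0.0111). It rested on 9, 52 and 18 UMIs in Cd4 cells of the Sham mice and 26, 2 and 3 of the DOCA-salt mice, and the call was lost in 6 of 9 alternatives, namely without Sham mouse 1, Sham mouse 2, DOCA-salt mouse 2 or DOCA-salt mouse 3, with DESeq2 and without a filter on low counts (14149 genes tested).

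The receptors of extracellular ATP and adenosine, the subject of the study in macrophages, were also read in T cells. P2rx7, an ATP-gated channel that T cells are known to carry, was found in 57 of 436 T cells (13.1%) and in 356 of 1634 macrophages (21.8%), at medians of 3384.5 and 4602.5 UMIs a cell. It was seen in 2 of 97 B cells and 0 of 35 NK cells, the latter allowing a share of up to 8.57% of NK cells with a UMI, not of NK cells that express it. Its level in T cells was 41.2, 80.1 and 49.7 CPM in Sham and 11.6, 39.6 and 49.6 CPM in DOCA-salt mice. In macrophages it was 38.5, 19.7 and 28.5 CPM against 60.7, 60.1 and 52.1 CPM. Over the 6 mice the means were 45.3 ± 22.0 CPM in T cells and 43.2 ± 17.1 CPM in macrophages (SD, n = 6), a mean log2 difference of -0.02 (exact sign-flip test, p = 0.969).

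The mean log2 change of P2rx7 with DOCA-salt was -0.91 in T cells and 1.02 in macrophages. The difference between these changes was -1.93, and the difference between T cells and macrophages of a mouse did not overlap between the groups (exact permutation test, p = 0.1, the smallest possible, an alternative added after seeing the data). The same lack of overlap was found for 10.3% of 4870 genes in this direction and 7.29% in the other. Among the 15 purinergic genes compared it was also seen for P2rx4 (-1.25) and Cd38 (-3.95), and for 3 genes with few UMIs, P2ry10b (2.86, at most 4 UMIs in the T cells of a mouse), Ada (-2.20, at most 2) and Art2b (-2.49, none in macrophages of Sham mice). The change of P2rx7 in T cells alone did not pass (edgeR, -0.76 ± 0.45, adjusted p = 0.688), and the groups overlapped. It was -0.38 without DOCA-salt mouse 1, which held the lowest level, and -0.48 without Sham mouse 2, and reached -1.14 without DOCA-salt mouse 3. In Sham mice P2rx7 was found in 3 T cells with Cd4 and 4 with Cd8a, and in DOCA-salt mice in 4 and 9.

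Adora2a, an adenosine receptor that restrains T cell activation, was at 92.7, 70.6 and 79.5 CPM in T cells of Sham and 72.7, 70.6 and 52.2 CPM of DOCA-salt mice. In macrophages it was at 0 to 4.05 CPM, lower than in T cells in 6 of 6 mice (log2 difference of 4.64, exact sign-flip test, p = 0.031, adjusted p = 0.117 over all genes and gates compared). P2ry10 (6.08), the adenosine-forming enzyme gene Nt5e (4.66), the ATP release channel gene Panx1 (2.74), Art2b (3.29) and Dpp4 (1.25) were also higher in T cells of 6 of 6 mice. Where macrophage levels were near 0, the size depended on the 1 CPM added before the log2. With 0.1 or 5 CPM added, the difference was 5.52 or 3.43 for Adora2a, 7.95 or 4.42 for P2ry10 and 5.31 or 1.75 for Art2b. For Dpp4 it was 1.28 or 1.11. P2rx4 was lower in 6 of 6, at 31.2 ± 8.27 CPM in T cells and 80.2 ± 27.4 CPM in macrophages (-1.31), and so was P2ry10b, at 5.01 ± 4.61 and 57.1 ± 12.5 CPM (-3.82). All of these had the smallest p the test allows, and none passed after adjustment. Of the 7 purinergic genes tested for the DOCA-salt change, Nt5e had an unadjusted p under 0.05 (34.3, 75.4 and 89.5 against 163, 76.3 and 198 CPM, 1.13 ± 0.39, edgeR, adjusted p = 0.297). P2ry6 and Nlrp3 were each seen in 0 of 436 T cells, which allows a share of up to 0.688% of cells with a UMI and sets no limit on cells that express them. Casp1 was at 20.6, 4.71 and 14.9 CPM in Sham and 46.5, 25.4 and 47.0 CPM in DOCA-salt mice, too low to be tested, and Gsdmd and Il1b had at most 8 UMIs a mouse.

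**Figure D5:**
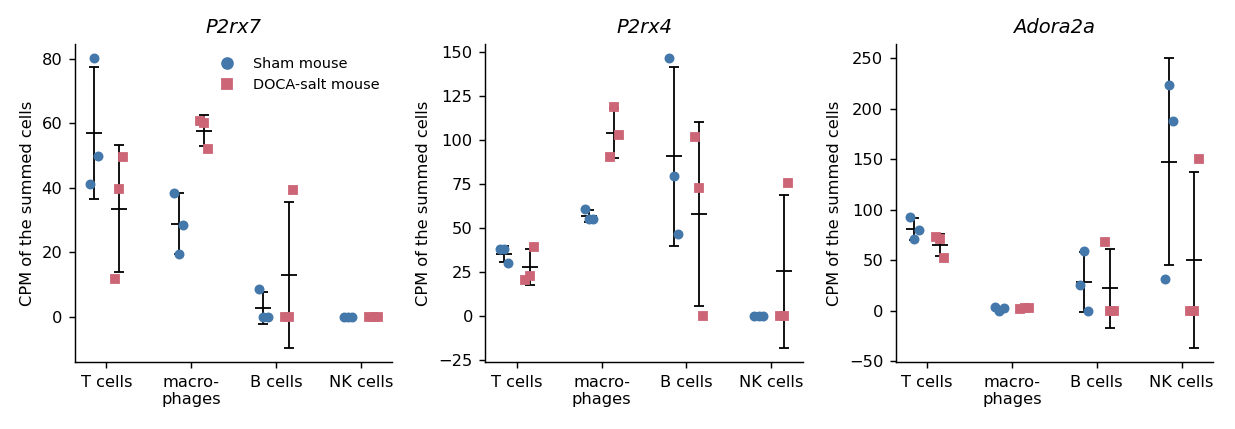
Levels of P2rx7, P2rx4 and Adora2a in the summed T cells, macrophages, B cells and NK cells of each mouse, in CPM, with circles for Sham, squares for DOCA-salt and the mean and SD as black bars. The B and NK sums hold 2 to 31 cells a mouse. P2rx7 is at 11.6 to 80.1 CPM in T cells and 19.7 to 60.7 CPM in macrophages, and Adora2a at 52.2 to 92.7 CPM in T cells and at most 4.05 CPM in macrophages.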

How the data were processed

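The authors deposited raw UMI counts per gene and barcode for each mouse, made per the labels with Cell Ranger 9.0.0 on GRCm39 (the file headers name another release), without normalization, and limited to barcodes called as cells. No count column of other samples was present. The members, gene lists and rules for named genes were chosen with earlier results of these data known.

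T cells were taken by the rule given above, and macrophages, B, NK and proximal tubule cells by like rules on their own genes. Named genes were, in T cells, the 10 largest rises and falls with an adjusted p under 0.05, no overlap between groups and 20 CPM or more on average (5 and 5 in Cd4 cells, 10 and 10 of equal sign in every mouse for Cd8a against Cd4), up to 4 examples a list, and the genes the study names in single cells.

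Counts were summed per mouse and tested with edgeR 4.0.16 (R 4.3.3) after its filter on low counts, with TMM and the quasi-likelihood test. The SE is the log2 change over the square root of F. Subsets needed 10 cells a mouse. Shares after thinning are the mean chance of a UMI in 1000. Exact permutation and sign-flip tests were two-sided, on log2 of CPM plus 1 for levels. Mice are the replicates. Scrublet (scanpy 1.11.5) expected 0.8% doublets per 1000 barcodes. DESeq2 1.42.0 was an alternative. Coordinates follow the GENCODE annotation of GRCm39. On simulated T cell counts with 200 changed genes, 78% of 4-fold and 12% of 2-fold changes were recovered, with 6 false among 96 calls. For Cd8a against Cd4 cells in 6 mice the shares were 97% and 56%, with 7 false among 160 calls. Results for some listed genes are not reported here.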

Additional observations from a re-analysis of the deposited data

Results flagged for a closer look

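Xcl1 differed between Cd8a and Cd4 T cells in its change with DOCA-salt. The difference of the log2 changes was 2.73 ± 0.57 (Cd8a minus Cd4, edgeR, adjusted p = 0.0111), by a test of the difference itself over all 6 mice, added after seeing the data. Over its 9 alternatives the difference was 2.31 to 3.62, and its adjusted p 0.000205 to 0.544. The call was lost in 6 of the 9.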

How the results depend on the processing

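The 12 genes called in T cells kept their direction under every alternative in which they were tested. Il1rl1, Tent5a and Inmt were tested in 17 alternatives, since they did not reach the filter at up to 0.05% proximal tubule UMIs. Lyst was called in 18 of 18 alternatives and the others lost the call in 4 to 8. The count of 12 became 17 with DESeq2, 14 with library size only, 217 of 16947 genes without a filter on low counts, 19 at up to 20% mitochondrial UMIs, 1 (of 3129 genes) at up to 0.05% proximal tubule UMIs, 34 without the called doublets, 31 without the mixed barcodes (added after seeing the data) and 1 to 48 when a mouse was left out. The cause was not tested. The mouse numbers did not pair the mice: deviations of same-numbered mice correlated at -0.146, -0.111 and 0.0261. With the replicate block 12 genes were called, 9 of them shared, and over all 6 mice the block gave 1 call in Cd4 cells and 0 in Cd8a cells.

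In Cd4 cells the 21 calls became 0 with DESeq2, 13 with library size only, 12 without a filter and 0 over all 6 mice. In Cd8a cells leaving out a DOCA-salt mouse gave 3 to 4 calls in place of 0. For Cd8a against Cd4 cells the 66 calls became 5 with DESeq2 and 4 when Cd8b1 chose the Cd8a cells. Over 6 mice these were 31 and 42, and 11 to 62 with a mouse left out (40 without Sham mouse 1). The count of 1 for the difference of changes became 0 with DESeq2, 2 with library size only, 0 without a filter and 0 to 3 with a mouse left out.

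T cells as a share of barcodes differed by 0.134 points, and by -4.21 of Ptprc barcodes. Cd8a shares of T cells kept their direction throughout, by 3.73 to 15.3 points, and of Ptprc barcodes the difference was 0.355. Marker shares of T cells that changed sign did so without thinning for S1pr1 (0.585), Gzma (1.06), Cxcr3 (4.61) and Adora2a (0.320 points). With a mouse left out the difference ranged from -1.23 to 0.218 for Trdc, -2.33 to 0.765 for S1pr1, -2.65 to 2.05 for Gzma, -5.59 to 1.63 for Gzmb, -0.164 to 3.89 for Gzmk, -0.647 to 0.272 for Cxcr3, -1.27 to 0.163 for Adora2a and, at its lowest, -1.58 for Ccl5. At 59 to 88 T cells a mouse, genes seen in few cells could not be tested, and 2-fold changes would mostly be missed.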
